A study of Mus musculus with 16 samples.

Results

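The Schlafen family of the mouse was followed through B16F10 melanoma tumors as 7 genes, Slfn1, Slfn2, Slfn3, Slfn4, Slfn5, Slfn8 and Slfn9, picked by family name from the 45777 genes of the expression table. B16F10 cells are a melanoma line of C57BL/6 origin, and every tumor was an allograft of this line in a mouse of 6 weeks at injection. Lean tumors grew in C57BL/6J mice and obese tumors in C57BL/6J-ob/ob mice, which lack functional leptin, and each host gave 4 tumors before therapy (groups B6_ctrl and ob_ob_ctrl) and 4 tumors after chemotherapy (groups B6_ETS and ob_ob_ETS). Chemotherapy was etoposide (ETS), which traps topoisomerase on broken DNA, and treated mice received 20 mg per kg in each of 5 injections. The labels call the untreated tumors ctrl, and the paper describes them as pre-chemotherapy. No day of collection and no vehicle are given for them, so the drug and any difference in tumor age cannot be told apart. The tumors were sequenced whole, so that fewer cells of a type and less RNA per cell cannot be told apart either. In obese mice the host leukocytes in a tumor carry the ob/ob genotype, whereas the melanoma cells do not.

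Schlafen proteins are a family of growth and RNA regulators that arose by gene duplication, and in the mouse they are sorted by size. The short members Slfn1 and Slfn2 hold little more than the Schlafen core, Slfn3 and Slfn4 carry an additional linker domain, and the long members Slfn5, Slfn8 and Slfn9 carry a helicase-like region as well. Several members are induced by interferon and are known from T cells and myeloid cells. A mutation of Slfn2 (elektra) breaks the quiescence of T cells and monocytes, human SLFN11 sensitizes cells to DNA-damaging drugs, and Schlafen cores cut or bind transfer RNA.

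The 7 genes lie close together on mouse chromosome 11, between positions 82951349 and 83215154 of GRCm38.p6, the build that mm10 names, a stretch of 263.8 kb. The pseudogene Slfn10-ps (83028123 to 83040533, minus strand) lies among them, between Slfn8 and Slfn2. Slfn5 (82951349 to 82964850, plus strand) opens the cluster and is followed by Slfn9 (82974316 to 82991830, minus strand) and Slfn8 (83002125 to 83020810, minus strand). Slfn2 (83065112 to 83070678), Slfn1 (83116820 to 83122670), Slfn4 (83175172 to 83190216) and Slfn3 (83191330 to 83215154) follow on the plus strand. Slfn1, Slfn2 and Slfn5 overlap annotated noncoding RNAs (Gm51911, Gm20234 and Slfn5os), and Slfn9 hosts the microRNA gene Mir7679. Of the windows of 1 read length in the members' annotated transcripts, 3.64% in Slfn9, 3.27% in Slfn8 and 2.87% in Slfn3 also occur in transcripts of another gene, and at most 0.222% do in the other 4 members. Slfn8 and Slfn9 share such windows with each other and with the pseudogene Slfn10-ps, so some of their reads could have been assigned to another of them. Slfn8 had counts of 10 to 32 in obese tumors before therapy, beside 967 to 1365 for Slfn9. In lean tumors after ETS these were 39 to 75 and 596 to 1318. A small part of the Slfn9 reads could therefore be a large part of the Slfn8 or Slfn10-ps counts there, which was not tested.

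Promoter sequences from RefSeq (GRCm38.p6, 300 bases around each start) were found for all 7 genes. They were searched on both strands for GAAANNGAA, the core of the interferon response element. The motif was present in the promoters of Slfn5, Slfn8 and Slfn9 and in none of the promoters of Slfn1, Slfn2, Slfn3 and Slfn4, and it occurs in 8.56% of all 32851 promoters of this length. Slfn14, a Schlafen gene outside the 7, also had a match, at positions -197 to -189 counted from the start. It reached at most 10 counts in any tumor. A missing match says only that these letters are absent from this window. The windows below, each before the start that the promoter table uses, show the motif in capitals in the 3 long members, and for comparison Slfn2, the first member by TPM in lean tumors before therapy and in obese tumors after ETS, and Slfn3, the first in obese tumors before therapy. For Slfn5 that start is not the outermost one of the gene: its promoter entry (82951852 to 82952151) lies inside the annotated span, so its window falls within the gene.
Slfn9, chr11:82991831-82991930, minus strand: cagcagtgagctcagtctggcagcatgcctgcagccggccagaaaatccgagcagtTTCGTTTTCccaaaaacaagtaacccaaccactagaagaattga
Slfn8, chr11:83020811-83020910, minus strand: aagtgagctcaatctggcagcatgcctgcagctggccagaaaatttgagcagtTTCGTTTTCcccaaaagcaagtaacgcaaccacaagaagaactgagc
Slfn5, chr11:82951922-82951981, plus strand: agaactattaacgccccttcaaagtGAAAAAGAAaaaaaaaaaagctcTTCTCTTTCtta
Slfn2, chr11:83065012-83065111, plus strand: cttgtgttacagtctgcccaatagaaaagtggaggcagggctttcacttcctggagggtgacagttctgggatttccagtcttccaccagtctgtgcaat
Slfn3, chr11:83191230-83191329, plus strand: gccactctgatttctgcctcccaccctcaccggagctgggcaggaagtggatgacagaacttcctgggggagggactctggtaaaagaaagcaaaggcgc

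The windows of Slfn8 and Slfn9 were identical at 89 of 103 aligned positions (86.4%), and both hold the same 9 letters, at positions -44 to -36 in Slfn9 and -47 to -39 in Slfn8 counted from the start. Slfn5 holds 2 matches, at -155 to -147 and, on the other strand, at -132 to -124. The window of Slfn2 shared 47.2% of aligned positions with that of Slfn9 and 51.3% with that of Slfn3. A second motif, the gamma-activated site TTCNNNGAA, was also searched on both strands. It had 0 matches in the promoters of the 7 genes and occurs in 8.3% of all promoters.

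Counts per tumor summed to between 47199949 and 61655287. The melanocyte and melanoma markers summed to between 10692 and 26070 CPM (counts scaled to library size) in every tumor, and all 7 of them were detected. Of 10 p53 targets, 10 rose after ETS in lean tumors and 8 in obese tumors, beside 3410 and 3438 of 16209 tested genes. Before therapy 8 of the 10 were already higher in obese tumors, beside 2181 of 16209 tested genes. The sums of the 10 were 1204 to 1269 CPM in obese tumors against 379 to 558 CPM in lean tumors. After ETS the sums were 2814 to 3510 CPM in lean and 2563 to 3047 CPM in obese tumors, above those of every tumor before therapy.

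In levels per transcript length (TPM, transcripts scaled to length and library size), the family was led by different members in different groups. In lean tumors before therapy the 7 genes summed to 96.5 ± 29.7 TPM (SD, n = 4), with Slfn2 first in every tumor at 41.0 ± 15.7 TPM. Slfn9, Slfn3 and Slfn5 followed at 13.02 ± 3.11, 13.01 ± 0.652 and 11.1 ± 5.65 TPM and did not differ beyond their spread, and nor did Slfn8 at 8.67 ± 2.88 and Slfn1 at 8.09 ± 6.08 TPM. Slfn4 was the lowest member, at 1.52 ± 2.06 TPM.

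In obese tumors before therapy the sum was 21.3 ± 5.54 TPM and Slfn3 was first in every tumor, at 12.3 ± 2.24 TPM, ahead of Slfn9 at 4.20 ± 0.980 and Slfn2 at 2.66 ± 2.18 TPM. Lean tumors after ETS had a similar makeup, with a sum of 18.9 ± 4.91 TPM that Slfn3 led at 8.50 ± 1.09 TPM, although Slfn2 was first in 1 of them with 42.2% of the sum. In obese tumors after ETS the sum was 42.0 ± 18.6 TPM and Slfn2 was first in every tumor again, at 18.3 ± 11.05 TPM. Slfn2 held 41.8% of the family sum on average in lean tumors before therapy, 23.7% in lean tumors after ETS, 11.6% in obese tumors before therapy and 41.8% in obese tumors after ETS.

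**Figure D1:**
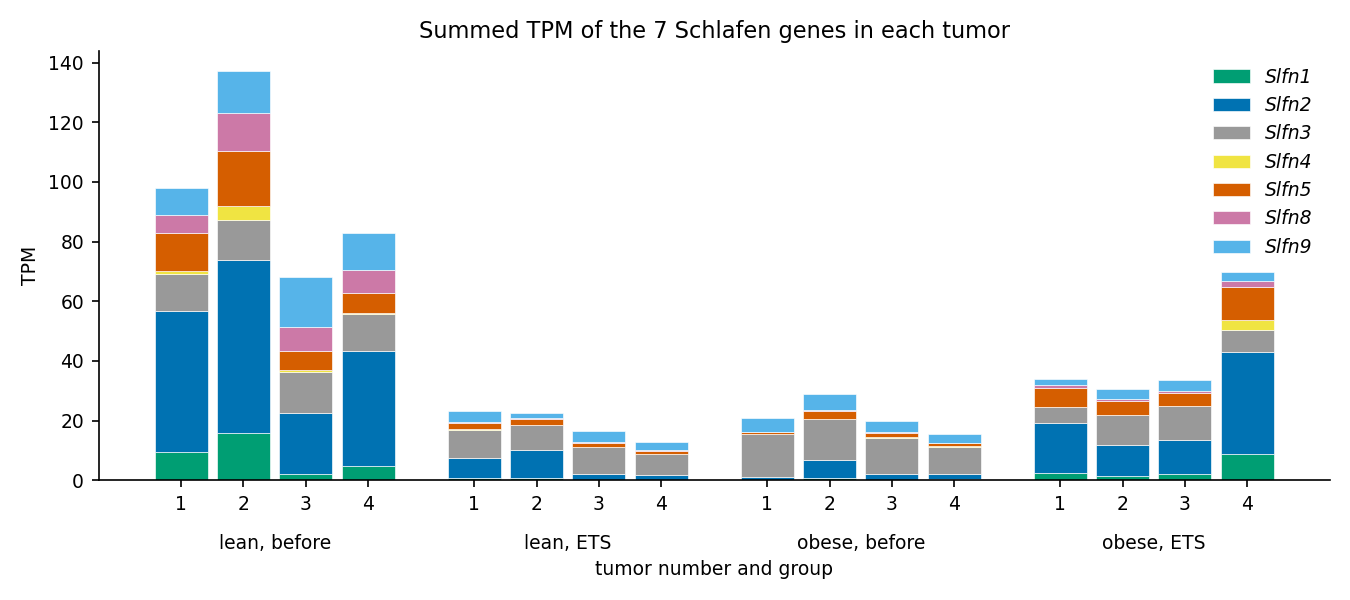
Stacked bars give the TPM of the 7 Schlafen genes in each of the 16 tumors, ordered by group and tumor number on the horizontal axis. The lean tumors before therapy reach 68.0 to 137.1 TPM, the lean tumors after ETS and obese tumors before therapy stay at or under 28.8 TPM, and obese tumors after ETS reach 30.8 to 69.7 TPM.

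After ETS 4 members, Slfn1, Slfn2, Slfn5 and Slfn8, moved in opposite directions in lean and obese tumors. In lean tumors 5 of the 6 members that could be tested (Slfn1, Slfn2, Slfn5, Slfn8 and Slfn9) fell, 3.40-fold to 17.3-fold, where 22.8% of all 16209 tested genes fell. In obese tumors these 4 of the 6 rose, 4.99-fold to 10.4-fold, where 21.2% of tested genes rose. The ETS effect was more negative in lean than in obese tumors for the same 5 members that fell in lean tumors, by an interaction contrast that called 10.1% of tested genes in this direction. Slfn4 had a count of 0 in 1 lean tumor after ETS, so it fell outside the tested set and is described apart. The numbers of members called in either direction in these 3 comparisons stayed within 1.5 times of these values when any single tumor was left out. In obese tumors the 4 rises were kept, and the number reached 5 where a fall of Slfn3 was called.

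The hosts also differed before therapy. Slfn1, Slfn2, Slfn5, Slfn8 and Slfn9 were lower in obese than in lean tumors, 2.78-fold to 38.1-fold, where 12.9% of tested genes were lower in obese tumors. After ETS 1 member, Slfn5, was higher in obese tumors, where 3.28% of tested genes were. The comparisons share groups: the lean tumors before therapy enter the ETS effect in lean tumors and the host difference before therapy, and the obese tumors before therapy enter that host difference and the ETS effect in obese tumors.

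**Figure D2:**
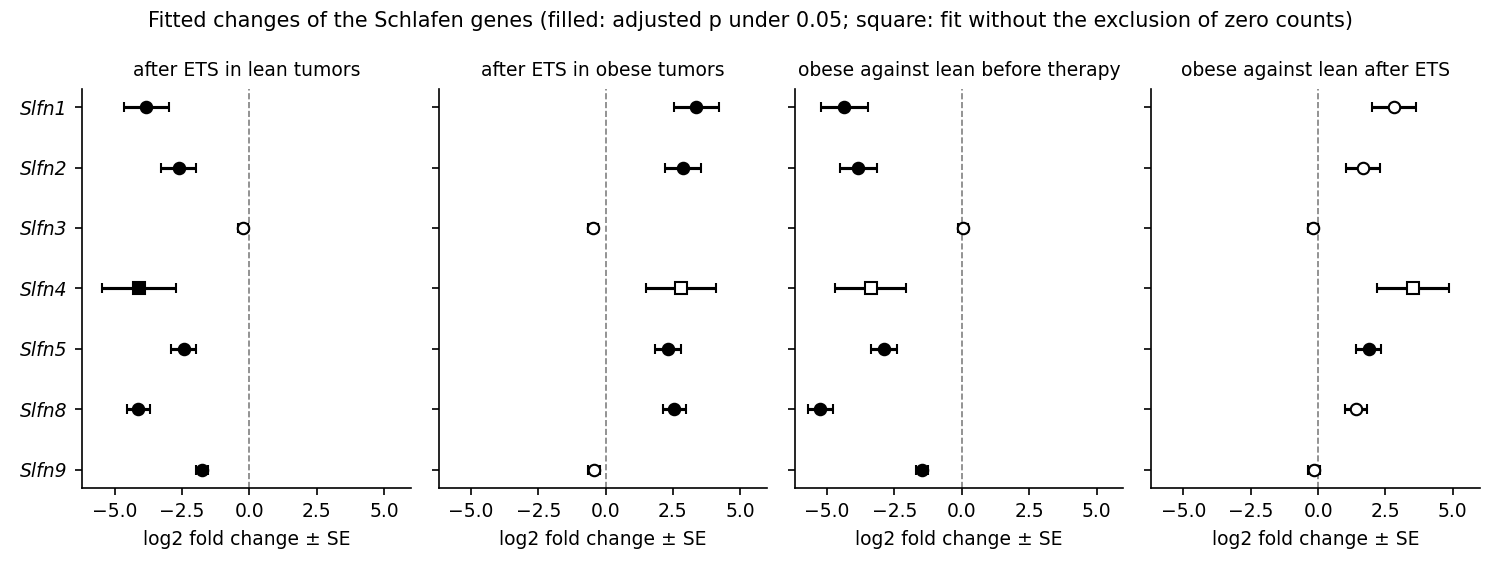
Points show the fitted log2 fold change of each Schlafen gene with its standard error in 4 comparisons, filled where the adjusted p was under 0.05, with a square for Slfn4 from the fit that kept genes with zero counts. Slfn1, Slfn2, Slfn5 and Slfn8 sit left of 0 after ETS in lean tumors and right of 0 in obese tumors, Slfn9 is displaced only in the 2 comparisons with lean tumors before therapy, and Slfn3 stays within 0.5 of 0.

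Slfn2, a short member that keeps T cells and monocytes quiescent, was measured at 40.9, 43.8, 14.9 and 29.1 CPM in lean tumors 1 to 4 before therapy and at 6.97, 10.7, 1.63 and 1.59 CPM in lean tumors after ETS. Obese tumors held 0.930, 4.81, 1.76 and 1.45 CPM before therapy and 17.3, 10.3, 9.05 and 28.9 CPM after ETS. The groups did not overlap in either host, and every obese tumor before therapy was also under every lean one. The change after ETS was -2.63 on the log2 scale in lean tumors (SE 0.65, adjusted p = 0.00467) and 2.87 in obese tumors (SE 0.66, adjusted p = 0.00359). The difference between these effects was -5.50 (SE 0.93, adjusted p = 0.000973). Before therapy Slfn2 was 14.4-fold lower in obese tumors (log2 -3.85, SE 0.69, adjusted p = 0.000872). Without obese tumor 2 before therapy the change in obese tumors was 3.56 and the host difference before therapy -4.54, and without lean tumor 2 after ETS the change in lean tumors was -3.26. After ETS the hosts overlapped, since lean tumor 2 at 10.7 CPM exceeded obese tumors 2 and 3, and the difference of 1.65 did not pass the test (SE 0.63, adjusted p = 0.118).

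Slfn1, the other short member and the founding gene of the family, described as a brake on thymocyte growth, followed the same pattern at a lower level. It stood at 9.22, 13.8, 1.73 and 4.19 CPM in lean tumors before therapy and at 0.784, 0.959, 0.215 and 0.105 CPM after ETS. In obese tumors it stood at 0.0827, 0.738, 0.167 and 0.424 CPM before therapy, from counts of 4 to 37, and at 2.77, 1.46, 2.04 and 8.37 CPM after ETS. No group overlapped with the one it was compared with, although lean tumors before therapy spread widely and obese tumor 4 after ETS stood well above the other 3. Leaving out obese tumor 4 after ETS brought the change in obese tumors from 3.37 to 2.57 on the log2 scale, and leaving out obese tumor 2 before therapy brought it to 3.997 and the host difference before therapy to -4.98, with every call kept. Slfn1 fell 14.1-fold in lean tumors (log2 -3.82, SE 0.84, adjusted p = 0.00229) and rose 10.4-fold in obese tumors (log2 3.37, SE 0.84, adjusted p = 0.00578). The effects differed by -7.19 on the log2 scale (SE 1.19, adjusted p = 0.000849). Slfn1 was 20.5-fold lower in obese tumors before therapy (adjusted p = 0.00188). After ETS every obese tumor lay above every lean tumor, but the difference of 2.83 missed the threshold (SE 0.81, adjusted p = 0.0526).

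Slfn3, which carries the linker domain but no helicase-like region, spanned at most 1.84-fold within any group. It was measured at 11.8, 11.1, 10.8 and 10.2 CPM in lean tumors before therapy and at 10.5, 10.2, 9.22 and 7.48 CPM after ETS. In obese tumors it was measured at 13.0, 12.3, 11.3 and 8.94 CPM before therapy and at 5.82, 10.7, 9.86 and 6.73 CPM after ETS. All comparisons of Slfn3 overlapped, and its log2 changes were -0.23 in lean tumors (SE 0.19, adjusted p = 0.324), -0.46 in obese tumors (SE 0.19, adjusted p = 0.0622) and 0.051 for obese against lean tumors before therapy (SE 0.19, adjusted p = 0.870). The difference between the ETS effects was 0.23 (SE 0.27, adjusted p = 0.608). On log2(TPM + 1) with limma, where the median of all genes shifted by -0.28 in lean tumors and by -0.052 in obese tumors, Slfn3 changed by -0.57 (adjusted p = 0.0197) and -0.53 (adjusted p = 0.0399). The change in obese tumors also passed when obese tumor 4 before therapy, or obese tumor 2 or 3 after ETS, was left out (adjusted p = 0.0397, 0.0240 and 0.0406), and by DESeq2 on all tumors (-0.45, adjusted p = 0.0461).

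Slfn4, the neighbor of Slfn3 and a gene of activated macrophages and myeloid precursors, was the scarcest and most uneven member. Its counts were 115, 541, 52 and 18 in lean tumors before therapy and 15, 13, 0 and 8 after ETS. In obese tumors they were 4, 4, 10 and 42 before therapy and 12, 20, 11 and 393 after ETS. A single tumor stood above the rest in lean tumors before therapy (tumor 2) and in obese tumors after ETS (tumor 4), and both were also the highest of their groups in Slfn1, Slfn2, Slfn5 and Slfn8. In the fit that kept genes with zero counts (28754 genes), Slfn4 fell in lean tumors by 4.10 on the log2 scale (SE 1.37, adjusted p = 0.0404), and the effects differed by -6.90 (SE 1.88, adjusted p = 0.0297), a call that ended when any 1 of 7 of the 16 tumors was left out (adjusted p from 0.0516 to 0.116). Its changes in obese tumors (2.80, SE 1.29, adjusted p = 0.147), between hosts before therapy (-3.38, SE 1.31, adjusted p = 0.106) and after ETS (3.52, SE 1.35, adjusted p = 0.187) did not pass. This fit called 12.5% of genes as lower in lean tumors after ETS, 10.9% as higher in obese tumors after ETS, 6.44% as more negative in lean tumors, 7.92% as lower in obese tumors before therapy and 0.887% as higher in obese tumors after ETS. Without obese tumor 4 after ETS the change in obese tumors was -0.051 (adjusted p = 1), the host difference after ETS was 0.67 and the difference between the effects was -4.05 (adjusted p = 0.116). Without lean tumor 2 before therapy, Slfn4 changed by -2.60 in lean tumors (adjusted p = 0.182), and leaving out any 1 of the lean tumors after ETS also ended the call (adjusted p from 0.0709 to 0.0869). An exact two-sided permutation test of log2 CPM over the 4 comparisons of 2 groups gave p = 0.0286 in lean tumors, the smallest value this design can give, and 0.114 after adjustment over the 4.

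Slfn5, the first of the long members and an interferon-induced gene in melanocytes and T cells, was measured at 40.5, 51.4, 17.0 and 18.7 CPM in lean tumors before therapy and at 7.64, 7.77, 4.06 and 4.10 CPM after ETS. Obese tumors held 2.19, 8.26, 4.30 and 2.56 CPM before therapy and 23.9, 15.9, 12.9 and 33.7 CPM after ETS. The groups were separate in all 4 comparisons, and obese tumors after ETS reached the range of lean tumors before therapy. Slfn5 fell 5.41-fold in lean tumors (log2 -2.44, SE 0.47, adjusted p = 0.000947) and rose 4.99-fold in obese tumors (log2 2.32, SE 0.47, adjusted p = 0.00162). The effects differed by -4.76 (SE 0.67, adjusted p = 0.000236), and before therapy Slfn5 was 7.37-fold lower in obese tumors (adjusted p = 0.000519). After ETS it was 3.66-fold higher in obese tumors (log2 1.87, SE 0.46, adjusted p = 0.0337), but that call ended when any 1 of the 4 lean tumors after ETS or obese tumor 4 after ETS was left out (adjusted p from 0.0506 to 0.103).

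Slfn8, a long member that T cells express, showed the largest fold of the 6 tested members in lean tumors. It was measured at 12.4, 23.1, 14.0 and 14.0 CPM in lean tumors before therapy and at 1.34, 0.779, 0.805 and 0.735 CPM after ETS. Obese tumors held 0.351, 0.598, 0.536 and 0.177 CPM before therapy, from counts of 10 to 32, and 2.52, 1.94, 1.04 and 4.27 CPM after ETS. The groups did not overlap within either host. The highest obese tumor after ETS remained below the lowest lean tumor before therapy, unlike for Slfn1, Slfn2 and Slfn5. Slfn8 fell 17.3-fold in lean tumors (log2 -4.12, SE 0.43, adjusted p = 9.45e-06) and rose 5.85-fold in obese tumors (log2 2.55, SE 0.43, adjusted p = 0.000441). The effects differed by -6.66 (SE 0.61, adjusted p = 1.07e-05). Before therapy Slfn8 was 38.1-fold lower in obese tumors (log2 -5.25, SE 0.47, adjusted p = 1.54e-06). How far reads shared with Slfn9 alter the low Slfn8 counts was not tested. After ETS the difference of 1.41 missed the threshold (SE 0.40, adjusted p = 0.0513), and lean tumor 1 at 1.34 CPM exceeded obese tumor 3.

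Slfn9, whose promoter is nearly that of Slfn8, passed the test after ETS in lean but not in obese tumors. It was measured at 48.9, 66.9, 74.8 and 57.9 CPM in lean tumors before therapy and at 23.5, 11.9, 21.1 and 16.6 CPM after ETS. Obese tumors held 24.7, 27.2, 20.3 and 17.1 CPM before therapy and 11.3, 20.2, 18.7 and 15.8 CPM after ETS. The lean tumors before therapy stood apart from all other tumors, and the other 3 groups overlapped. Slfn9 fell 3.40-fold in lean tumors (log2 -1.76, SE 0.22, adjusted p = 4.07e-05), and its change in obese tumors was -0.44 (SE 0.22, adjusted p = 0.126). The difference between the effects was -1.33 (SE 0.31, adjusted p = 0.00889). Slfn9 was 2.78-fold lower in obese tumors before therapy (log2 -1.48, SE 0.22, adjusted p = 0.000223) and differed by -0.15 between hosts after ETS (SE 0.22, adjusted p = 0.711).

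**Figure D3:**
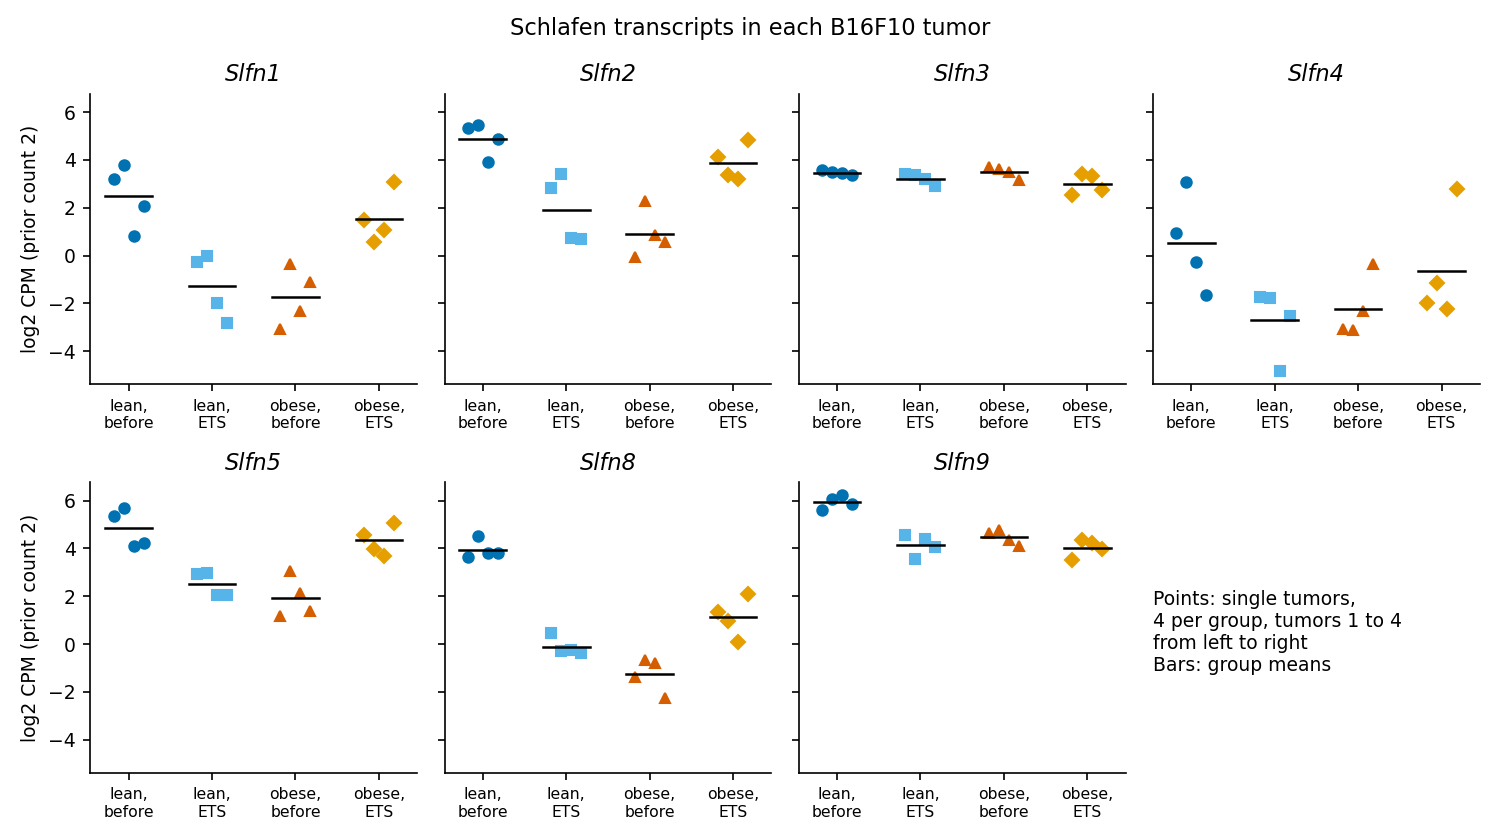
Each point is the log2 CPM (prior count 2) of a tumor, with 4 tumors per group from left to right and a bar at the group mean. Slfn1, Slfn2, Slfn5 and Slfn8 drop in lean tumors and climb in obese tumors, Slfn9 is high only in lean tumors before therapy, Slfn3 lies flat, and Slfn4 is scattered, with tumor 4 far above the other obese tumors after ETS.

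The remaining Schlafen genes added little RNA. The pseudogene Slfn10-ps had counts of 114 to 173 in lean tumors before therapy, 12 to 27 after ETS, 11 to 20 in obese tumors before therapy and 19 to 91 after ETS. It fell by 2.46 on the log2 scale in lean tumors (adjusted p = 0.000234) and rose 2.71-fold in obese tumors (adjusted p = 0.0108), where the groups overlapped. Slfn14 reached at most 10 counts and Slfnl1 at most 4 in any tumor, and Slfn5os, the antisense partner of Slfn5, was listed at 0 in all 16 tumors.

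Interferon pathway genes were examined beside the family because several Schlafen genes are interferon targets. Of the ligands, Ifng, the product of activated T and NK cells, averaged 1.86 CPM in lean tumors before therapy and at most 0.0199 CPM in the other groups, and the 9 ligand genes together summed to 1.02 to 2.74 CPM in lean tumors before therapy and at most 0.109 CPM elsewhere. None of the ligands could be tested, since each had a count of 0 in some tumor. Of 19 receptor and signaling genes, 12 fell and 1 rose in lean tumors after ETS, and 12 rose in obese tumors. Irf1, a transcription factor induced by interferon, fell by 3.46 in lean tumors (adjusted p = 1.47e-06) and changed by 0.36 in obese tumors (adjusted p = 0.294).

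Of 32 interferon response genes that hold no Schlafen gene, 22 fell in lean tumors after ETS (median log2 change -1.54, against -0.015 over all tested genes) and 29 rose in obese tumors (median 2.49, against 0.0066). The difference between the effects was called for 31 of the 32, and before therapy 31 were lower in obese tumors and 1, Isg20, was higher. Among all tested genes 22.8% fell in lean tumors, 21.2% rose in obese tumors and 12.9% were lower in obese tumors before therapy. The effect was more negative in lean tumors for 10.1%. After ETS 0 of the 32 differed between hosts by edgeR's quasi-likelihood test (median 0.049), 4 had an unadjusted p under 0.05, and DESeq2 called 3. The summed CPM of the list was 2377 to 3927 in lean tumors before therapy, 736 to 929 after ETS, 184 to 310 in obese tumors before therapy and 561 to 867 after ETS.

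**Figure D4:**
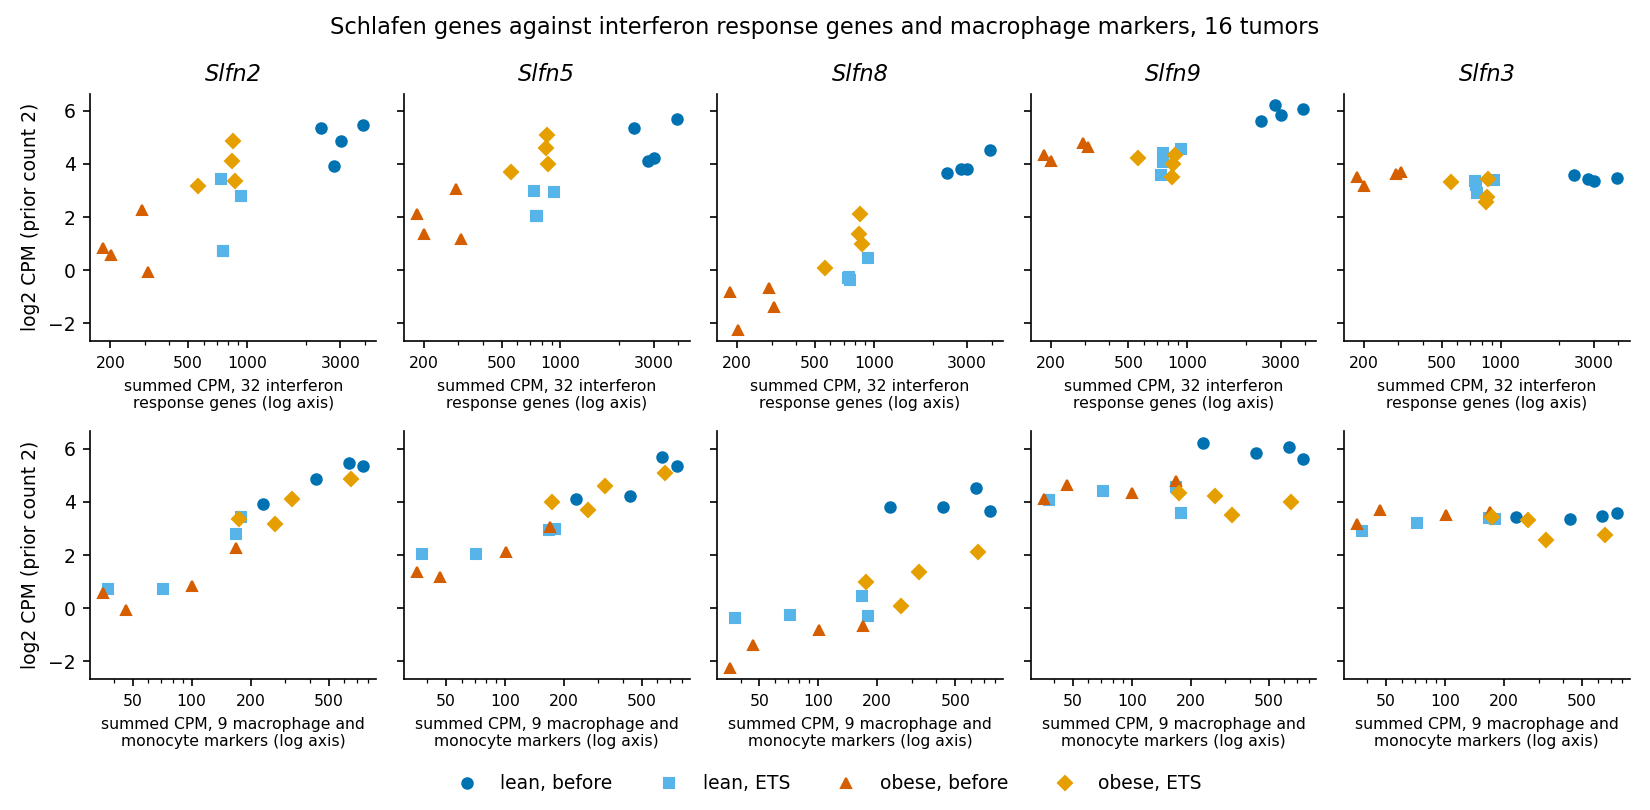
The log2 CPM of Slfn2, Slfn5, Slfn8, Slfn9 and Slfn3 in 16 tumors is plotted against the summed CPM of 32 interferon response genes (top) and of 9 macrophage and monocyte markers (bottom), both on log axes. The points of Slfn2 and Slfn5 rise with the macrophage marker sum across all groups, and Slfn3 is flat along both axes. Slfn8 and Slfn9 lie higher in lean tumors before therapy than in obese tumors after ETS, and the macrophage marker sums of these groups overlap. Sums of other host cell markers are not shown, and the cause of these patterns was not tested.

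Markers of several host cell types moved in the direction of Slfn1, Slfn2, Slfn5 and Slfn8, and their part in the changes of the family was not tested. Of 9 macrophage and monocyte markers 8 could be tested, and 6 fell in lean tumors, 4 rose in obese tumors and 6 were lower in obese tumors before therapy. The shares of all tested genes in these directions were 22.8%, 21.2% and 12.9%. Their summed CPM was 231 to 752 in lean tumors before therapy, 37.6 to 179 after ETS, 35.4 to 169 in obese tumors before therapy and 174 to 653 after ETS. Obese tumor 4 after ETS, the highest of its group in Slfn1, Slfn2, Slfn4, Slfn5 and Slfn8, had the 653. Ptprc, the antigen of all leukocytes, ran from 28.5 to 69.3 CPM in lean tumors before therapy, from 0.613 to 4.24 after ETS, from 1.32 to 4.67 in obese tumors before therapy and from 2.88 to 15.9 after ETS.

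T cell markers were scarce in obese tumors, where Lck, the 1 of 10 that could be tested, fell from a mean of 3.02 to 1.90 CPM. Each other marker averaged at most 0.162 CPM before therapy and 0.254 CPM after ETS in obese tumors. All of these except Cd8b1 had a higher mean after ETS, so the sum in obese tumors rests mostly on Lck. The 10 markers summed to 32.6 to 53.8 CPM in lean tumors before therapy, 1.58 to 3.88 after ETS, 3.53 to 4.41 in obese tumors before therapy and 1.96 to 4.94 after ETS, with Cd2 at 0 in all lean tumors after ETS and Cd3e at 0 in all obese tumors before therapy. The 6 NK cell markers summed to 12.4 to 27.4 CPM in lean tumors before therapy, 0.269 to 1.73 after ETS, 0.186 to 0.977 in obese tumors before therapy and 0.700 to 3.71 after ETS, so that obese tumors had a median of 0.477 before therapy and 1.83 after ETS, and none of the 6 could be tested. Over the 16 tumors, with group means subtracted, the NK sum correlated with Slfn1 at r = 0.760 and with Slfn2 at 0.860. This was not particular to NK cells. The values were 0.821 and 0.901 for the macrophage and monocyte sum and 0.855 and 0.892 for Ptprc. They were 0.833 and 0.875 for the fibroblast sum and 0.737 and 0.780 for the T cell sum. For Slfn3 and Slfn9 they were -0.073 and -0.134 for the NK sum, and 0.153 and -0.108 for the macrophage and monocyte sum. With Ptprc these members stood at 0.026 and -0.056, with the fibroblast sum at -0.302 and -0.489 and with the T cell sum at -0.064 and -0.144. The 6 neutrophil markers summed to 3.46 to 14.7, 0.350 to 2.56, 1.34 to 21.5 and 2.04 to 30.1 CPM in the 4 groups in the same order, and the 5 B cell markers to 1.14 to 2.76 CPM over all tumors. Cd79a, the 1 B cell marker that could be tested, rose by 1.62 on the log2 scale in lean tumors after ETS (adjusted p = 0.000232). In obese tumors it rose by 0.72 (adjusted p = 0.0347).

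Stromal markers rose in obese tumors too, namely 5 of 5 fibroblast markers, 3 of 4 endothelial markers and the 1 adipocyte marker that could be tested. There 21.2% of all tested genes rose. The 5 fibroblast markers summed to 369 to 1035 CPM in lean tumors before therapy, 60.9 to 394 after ETS, 69.3 to 351 in obese tumors before therapy and 391 to 3050 after ETS. The 4 endothelial markers summed to 87.9 to 113, 58.4 to 82.7, 40.0 to 73.6 and 72.9 to 200 CPM in that order, and the 4 adipocyte markers to 10.2 to 24.9, 7.66 to 17.5, 13.4 to 89.2 and 65.9 to 253 CPM.

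The members fell into patterns across the 16 tumors, described here by Pearson's r of log2 CPM without a test, since the tumors share 4 groups and the group differences enter every r. Slfn1, Slfn2 and Slfn5 were the most alike (r from 0.957 to 0.968), and after subtraction of group means r stayed between 0.840 and 0.905. Slfn8 stood at r = 0.825 to 0.878 with these 3 genes and at 0.728 with Slfn9, and at 0.425 to 0.715 and 0.208 after subtraction of group means. Slfn3 was at r = 0.548 with Slfn9 and between -0.161 and 0.0123 with the other members. Outside the family, the gene most like Slfn1 was Arhgef6 (r = 0.980), that most like Slfn2 was Spi1 (0.990), that most like Slfn5 was Ly6a (0.979), that most like Slfn8 was Apobec1 (0.984) and that most like Slfn9 was Galnt7 (0.966). With group means subtracted, the most alike were Gm14548 for Slfn1 (0.940), Arhgef6 for Slfn2 (0.972), Postn for Slfn5 (0.968), Oasl2 for Slfn8 (0.902) and Eif2ak2 for Slfn9 (0.920). Slfn3 and Slfn4 had looser neighbors over all tumors, Kyat3 (0.898) and Glipr2 (0.858).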

How the data were processed

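RNA of 16 whole B16F10 tumors was analysed, 4 in each of 4 groups given by the sample labels. The authors trimmed the reads with Trimmomatic, aligned them to mm10 with HISAT2 2.1.0 and quantified genes with StringTie 2.1.3b (names and versions from the submitters' processing notes and the paper's methods). The authors deposited raw counts, in whole numbers for each gene. The TPM values the authors deposited were used for levels between genes and as an alternative, and the deposited FPKM values were not used. Whether counting used the strand is not given in the sources used here.

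Following the study's methods, 29568 of 45777 genes were dropped because at least 1 tumor had no read for them. The remaining 16209 were scaled by TMM and fitted in 1 model with a mean per group, and tested with edgeR's quasi-likelihood test (edgeR 4.0.16, R 4.3.3) with p-values adjusted by Benjamini and Hochberg across the whole tested table and a threshold of 0.05. Standard errors were derived from each F statistic. The tests were tested on simulated data. Levels are CPM after TMM scaling, and log2 CPM used a prior count of 2. Counts in a tumor cover counting error only, and labels do not say whether tumors of a group came from separate mice, so p-values measure the spread between these tumors. Tumors of a group differed by more than sampling noise.

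The rule for the members is the family name and uses no measured value, but the family and the gene lists were chosen with earlier results of these data known. Named genes were all members, other Schlafen genes, the genes most like each member over the 16 tumors, and the genes of each list with the highest mean. Isg20, Irf1, Cd2, Cd3e, Ifng and Ptprc are named as single features of their lists. Alternatives were DESeq2 size factors, no exclusion or filterByExpr, edgeR's exact test on counts with 1 added, DESeq2 1.42.0, limma 3.58.1 with voom or on TPM, only the 2 groups compared, a replicate block and each tumor left out. For Slfn4, leaving out each tumor without the exclusion was added after seeing the data.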

Additional observations from a re-analysis of the deposited data

Results flagged for a closer look

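In 6 members the interaction contrast passed the test, where 10.1% of all tested genes were more negative in lean tumors (6.44% in the fit that kept zero counts, used for Slfn4). The call of Slfn4 was lost when any 1 of 7 tumors was left out (adjusted p up to 0.116). On the log2 scale the effect in lean minus that in obese tumors was -7.19 for Slfn1, -5.50 for Slfn2, -6.90 for Slfn4 (in the fit without the exclusion of zero counts), -4.76 for Slfn5, -6.66 for Slfn8 and -1.33 for Slfn9. For Slfn1, Slfn2, Slfn5 and Slfn8 every tumor after ETS lay below the tumors before therapy in lean hosts and above them in obese hosts. For Slfn9 the difference came with a fall in lean tumors and a change in obese tumors that did not pass the test.

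Among 28 sets of 4 tumors (7 members in 4 groups), 1 tumor stood apart by Dixon's test. Lean tumor 1 after ETS had a log2 CPM of 0.46 for Slfn8, where the next of its group was at -0.25. Chance alone marks about 1 in 20 such sets.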

How the results depend on the processing

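The counts of members called after ETS in lean tumors, after ETS in obese tumors, in the difference between these effects and between hosts before therapy stayed within 1.5 times under all alternatives run. After ETS, where 1 member was called as different between hosts, the count was 3 with DESeq2 size factors, the exact test, DESeq2 and the replicate block, 2 with voom and on log2(TPM + 0.1), 0 with only the 2 groups compared, and from 0 to 3 when single tumors were left out. The 32 interferon response genes, of which 0 were called there, gave 2 by the exact test, 3 by DESeq2, 2 with the replicate block, and from 0 to 1 with single tumors left out. The small changes of Slfn3 turned sign on TPM, where the difference between the effects was -0.040 with a pseudocount of 1 and -0.037 with 0.1, and the host difference before therapy -0.088 and -0.096. With single tumors left out that difference ran from -0.017 (without obese tumor 1) to 0.15. Slfn9 between hosts after ETS ran from -0.31 to 0.0035 (without obese tumor 1), and Slfn4 after ETS in obese tumors from -0.051 (without obese tumor 4) to 4.08. On log2(TPM + 1), all calls split into 1351 rises and 7281 falls in lean tumors (3410 and 3689 with edgeR), 2572 and 3333 in obese tumors (3438 and 3079), 228 and 2239 for the difference between effects (1030 and 1630), 1127 and 2765 between hosts before therapy (2181 and 2099) and 663 and 128 after ETS (531 and 373). Deviations of same-numbered tumors correlated from -0.112 to 0.452. These values were not compared with those of differently numbered tumors, so whether the numbers pair the tumors was not settled. The replicate block changed no other member count by over 1.5 times. The cause of these shifts was not tested. Counts under 50, as for Slfn1, Slfn4 and Slfn8 in obese tumors before therapy, leave wide errors.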

Other observations

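Genes tied to the known functions of Schlafen proteins were examined in lists of their own. Of 8 genes of transfer RNA cleavage and translation stress, 4 fell in lean tumors after ETS, and 3 rose and 2 fell in obese tumors. For comparison, the calls over all 16209 tested genes were 3689 decreases in lean hosts, with 3438 increases and 3079 decreases in obese hosts. Whether this short list departs from those shares was not tested. Atf4, the transcription factor of the integrated stress response, fell by 1.49 in lean tumors (adjusted p = 0.00620) and by 1.30 in obese tumors (adjusted p = 0.0144). Eif2ak2, the kinase PKR that senses double-stranded RNA, fell by 0.69 in lean tumors (adjusted p = 0.00142) and rose by 0.58 in obese tumors (adjusted p = 0.00539), the direction of Slfn1, Slfn2, Slfn5 and Slfn8 at a smaller size. Rnh1, the ribonuclease inhibitor, rose by 0.75 in obese tumors (adjusted p = 0.00207) and changed by -0.024 in lean tumors (adjusted p = 0.913). Of 15 replication stress and checkpoint genes, 11 fell in lean and 13 in obese hosts and 0 rose, beside 3689 and 3079 of 16209 tested genes that fell. The difference between the effects was called for 1 of the 15, Rpa3 (0.85, adjusted p = 0.0272), a subunit of the single-strand DNA binding protein, named after its value was seen.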
